A study of Mus musculus with 17 samples.

Results

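Whole blood of mice given 3.0 Gy of X-rays to the whole body was compared with whole blood of unirradiated mice, gene by gene, 24 h after exposure. The comparison used 9 of the 17 arrays of the series, namely 4 arrays labelled 3.0 Gy and 5 labelled control (0 Gy), and all probe sets that carried a single gene symbol were described. The mice of both groups were females of the inbred strain C57BL/6JJcl aged 8 weeks, with no transgene or other agent named in the labels, and each array held the RNA of 1 mouse, which the labels call a biological replicate. The remaining 8 arrays came from mice given 0.5 or 1.0 Gy and entered the fit for its estimate of the spread and a direct comparison of doses. Blood was collected into a tube that stabilises RNA, so all blood cells were measured together, and a single time after exposure and a single sex were sampled.

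Ionising radiation breaks DNA, and the transcription factor p53 responds by switching on genes that halt the cell cycle or start cell death. Lymphocytes are among the most radiosensitive cells of the body and B cells more so than most, whereas mature neutrophils do not divide and red cells and platelets carry no nucleus, only RNA left over from their precursors in the marrow. Whole blood therefore mixes the response of each cell with the changing share of each cell type.

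Values are the log2 levels that the authors deposited, on which a difference of 1 is a 2-fold change, and a group mean is given with its SD over mice (n = 4 at 3.0 Gy and n = 5 in control). A change, written as 3.0 Gy minus control, is the difference between the means, also in log2 units, with limma's SE, and a gene was called when limma's adjusted p was under 0.05. Markers of B, T and NK cells, neutrophils, monocytes, platelets and red cells were all present in the upper part of the arrays, apart from the globin gene Hba-a1, whose named probe set lay at the 29.9th to 40.1st percentile. Of the genes that blood should lack, heart Myh6 lay between the 1.33rd and 11th percentile and Col3a1 of connective tissue between the 10.2th and 27.9th. Others read higher, with liver Ttr at the 86.9th to 94.6th percentile, heart Actc1 at the 48.5th to 65.4th, Col1a1 at the 39th to 63.2nd and the epidermal keratins Krt5 at the 40.8th to 55.3rd and Krt14 at the 23.4th to 41.7th. The mean of Ttr was 6.76 at 3.0 Gy and 6.19 in control (change 0.58, adjusted p = 0.00524). Liver Alb ranged from 4.96 to 6.99 at 3.0 Gy and from 3.54 to 8.53 in control, the highest value being control replicate 4. Pairs of arrays of the same group correlated across probe sets with a median r of 0.985 (0.9705 to 0.9899, 16 pairs), and pairs of a 3.0 Gy and a control array with a median r of 0.9351 (0.8945 to 0.9641, 20 pairs). These r values are across probe sets, which are not independent replicates. Within the 3.0 Gy group, replicate 2 stood apart, with the lowest median r to its own group (0.975) and the highest remaining levels of B cell genes, as given beside the results below. The median over tested genes was 4.93 ± 0.04 at 3.0 Gy and 5.07 ± 0.02 in control, a difference of -0.139 (exact permutation p = 0.00794, the smallest that the regroupings of 4 and 5 mice allow, adjusted p = 0.0238 over 6 array measures). The 3′ minus 5′ difference of the Actb control probe sets, a sign of RNA integrity, was 0.04 ± 0.13 at 3.0 Gy and 0.13 ± 0.06 in control (exact permutation p = 0.198, adjusted p = 0.298), and for Gapdh it was 0.17 ± 0.09 at 3.0 Gy and 0.18 ± 0.14 in control (exact permutation p = 0.873).

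A large part of the measured genes differed between 3.0 Gy and control. Of 12696 genes tested, 6237 (49.1%) were called, with 2534 (20.0%) higher and 3703 (29.2%) lower, and the median change over all tested genes was 0.04. The larger changes leaned further downwards. At least 2-fold changes numbered 660 higher (5.20%) and 1407 lower (11.1%), and at least 4-fold changes numbered 97 higher (0.764%) and 196 lower (1.54%). In 1804 genes (14.2%) all 4 irradiated mice lay above the range of the 5 control mice, and in 2908 (22.9%) all lay below it. Setting every array to the same median over tested genes, a shift of -0.139 between the groups, turned the balance to 4494 higher and 3093 lower, so small changes depend on the scaling and are read against that shift. Of the 196 genes that fell at least 4-fold, 47 belonged to the lists of B cell, T cell, MHC class II or plasma cell genes and 0 to the platelet lists. Of the 97 that rose at least 4-fold, 13 belonged to the platelet lists and 0 to those lymphocyte lists. Any of the 35 gene lists held 64 of the 196 and 19 of the 97, beside 855 of the 12696 tested genes. The lists were chosen with earlier results of these data known, so these counts describe their members only.

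**Figure D1:**
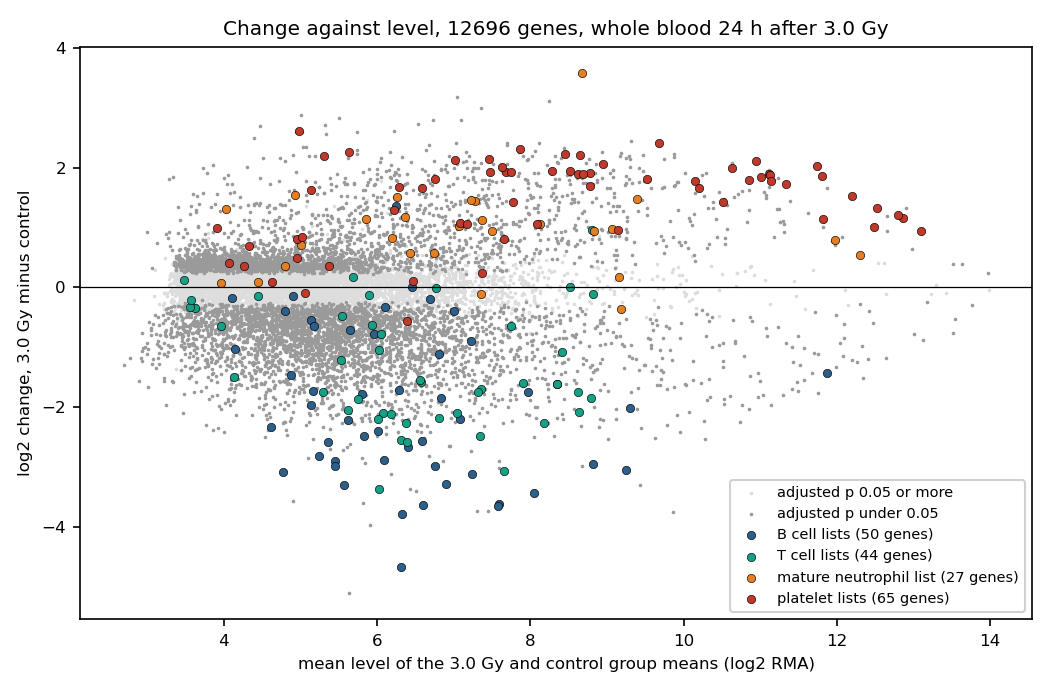
Log2 change (3.0 Gy minus control, vertical axis) against the mean log2 level of the 2 groups (horizontal axis) for 12696 genes, with 4 cell types in colour. B and T cell genes lie mostly below 0 with the lowest B cell gene, H2-Ob, at -4.66, platelet genes lie mostly above 0 across the whole range of levels, up to 2.60 for Pde5a, and the single neutrophil gene far above the others, at 3.58, is Slfn4.

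The largest fall was in an immunoglobulin gene. Ighv14-2, a variable segment of the immunoglobulin heavy chain, read 2.85, 4.19, 2.94 and 2.35 in the 3.0 Gy mice, against 8.67, 8.02, 8.19, 8.60 and 7.42 in the control mice. Its change of -5.10 (SE 0.33, adjusted p = 5.92e-09) was a 34.2-fold fall. Probe sets of variable segments can bind related segments. Cnn3, an actin-binding calponin, had 3.21, 5.43, 3.21 and 3.85 at 3.0 Gy, against 8.42, 7.70, 7.61, 8.16 and 7.57 in control (change -3.97, SE 0.34, adjusted p = 4.2e-08). Btla, an inhibitory receptor of lymphocytes, had 5.41, 6.41, 4.92 and 5.01 at 3.0 Gy, against 9.57, 8.82, 9.19, 9.52 and 8.72 in control (change -3.73, SE 0.29, adjusted p = 2.16e-08). In all 3 genes 3.0 Gy replicate 2 was the highest irradiated mouse. The 15 largest falls were taken only from called genes without overlap of the groups. Their lack of overlap, here and below, was thus a condition of entry and not a result. The other genes among the 15 largest falls were H2-Ob, Bank1, H2-Aa, H2-Ab1, Fcmr, Pou2af1, Cd79b, Ms4a1, Cd8b1, the light chain segment Igkv8-30, the purinergic-family receptor P2ry10 (-3.55) and the kinase Sbk1 (-3.60).

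The largest rise was in Slfn4, a Schlafen family gene of myeloid cells that responds to interferon. It read 11.06, 9.63, 10.15 and 11.02 at 3.0 Gy, against 7.26, 5.96, 7.02, 7.28 and 6.90 in control, a change of 3.58 (SE 0.31, adjusted p = 4.92e-08), or 11.9-fold. Ifit3, an interferon-induced antiviral protein, followed with 8.77, 8.81, 8.06 and 8.90 at 3.0 Gy, against 5.50, 5.46, 5.37, 5.38 and 5.59 in control (change 3.17, SE 0.22, adjusted p = 9.8e-09). The 15 largest rises were likewise taken only from called genes without overlap of the groups, so their lack of overlap is not a result. Tmem140 had 8.76, 8.10, 9.23 and 9.33 at 3.0 Gy, against 5.20, 5.47, 6.13, 6.25 and 6.28 in control (change 2.99, SE 0.25, adjusted p = 3.29e-08). Among the other 12 of the 15 largest rises, with changes from 2.59 to 2.88, were several genes of the actin cytoskeleton and cell shape, such as Cttn (cortactin, 2.73), Enah (an actin-polymerising protein, 2.70), Abi2 (2.59) and Frmd4b (2.83). Mbp, best known as myelin basic protein but also transcribed in blood cells, changed by 2.80, the imprinted gene Mest by 2.79, Apcdd1 by 2.71, Fam110b by 2.88, Pgap4 by 2.61, Cracd by 2.59, the RNA-binding protein Ro60 by 2.60 and the phosphodiesterase Pde5a by 2.60.

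**Figure D2:**
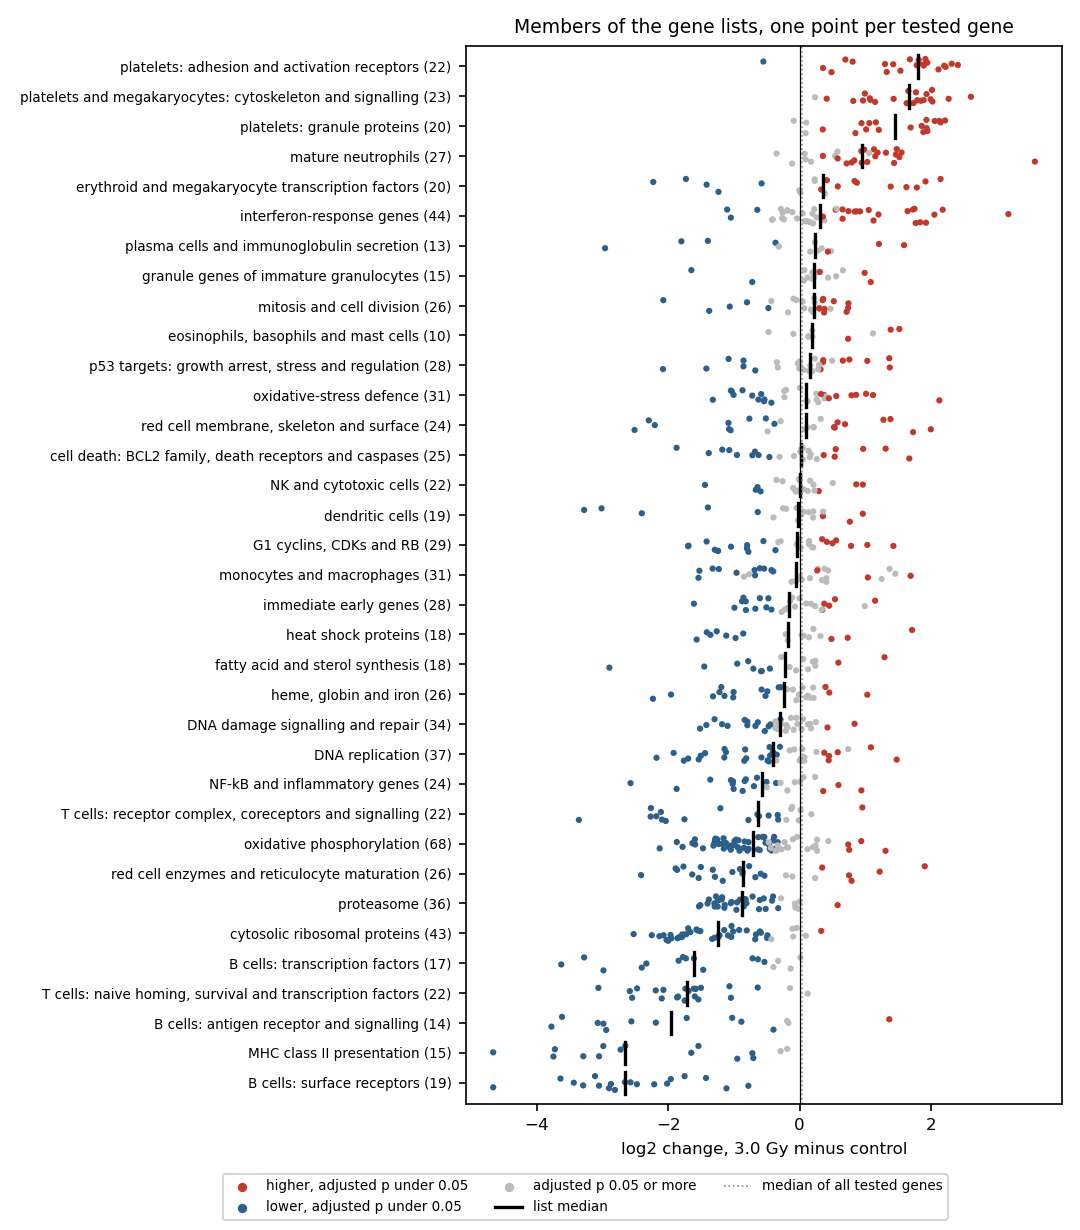
Log2 change (3.0 Gy minus control, horizontal axis) of every tested member of 35 gene lists, ordered by the list median, with the number of tested genes in brackets. The 3 platelet lists lie at the top with medians of 1.45 to 1.80, and the B cell surface and MHC class II lists at the bottom with medians of -2.66 and -2.65.

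B cells carry an antigen receptor of membrane immunoglobulin with the signalling chains Cd79a and Cd79b. Of 14 tested genes of the antigen receptor and its signalling, 11 fell and 1 rose, with a median change of -1.95. These were shares of 78.6% and 7.14% beside 29.2% and 20.0% of all genes. Cd79a read 5.04, 6.18, 4.96 and 5.04 at 3.0 Gy, against 8.28, 7.42, 7.75, 8.22 and 7.66 in control (change -2.56, SE 0.23, adjusted p = 9.39e-08). Cd79b read 5.16, 7.53, 5.56 and 4.90 at 3.0 Gy, against 9.87, 8.99, 9.18, 9.72 and 9.27 in control (change -3.61, SE 0.39, adjusted p = 4.79e-07). For both chains every irradiated mouse lay below every control mouse, and replicate 2 lay highest. Bank1, an adaptor of receptor signalling, read 4.23, 6.21, 3.66 and 3.66 at 3.0 Gy, against 8.61, 8.05, 8.16, 8.55 and 7.70 in control (change -3.77, SE 0.39, adjusted p = 3.09e-07). The linker Blnk fell by 2.98 (SE 0.33, adjusted p = 6.39e-07), the Fc receptor-like protein Fcrla fell by 3.07 and the heavy chain of IgM, Ighm, fell by 2.94, and the phospholipase Plcg2 fell by 0.89. The kinase Btk fell by 0.40. The exception was Dapp1, a signalling adaptor, with 6.92, 6.38, 7.11 and 7.30 at 3.0 Gy, against 5.76, 5.38, 5.58, 5.58 and 5.53 in control (change 1.36, SE 0.14, adjusted p = 3.51e-07). In whole blood, fewer cells of a type and less RNA per cell cannot be told apart.

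All 19 tested surface receptors of B cells fell, beside 29.2% of all genes, with changes of -4.66 to -0.78 and a median of -2.66. Cd83, an activation marker, read 3.95, 4.33, 3.99 and 4.05 at 3.0 Gy, against 6.90, 6.23, 6.60, 7.09 and 6.45 in control, a fall of 2.57 (SE 0.17, adjusted p = 7.38e-09). Fcer2a, the low-affinity IgE receptor CD23 of follicular B cells, read 4.4, 5.04, 4.54 and 4.68 at 3.0 Gy, against 7.91, 7.47, 7.46, 7.89 and 6.93 in control (change -2.87, SE 0.21, adjusted p = 1.37e-08). Ms4a1, which encodes CD20, read 5.75, 8.15, 5.86 and 5.55 at 3.0 Gy, against 10.23, 9.25, 9.52, 10.02 and 9.79 in control (change -3.44, SE 0.39, adjusted p = 7.84e-07). None of the 3 genes had overlapping groups, and in Ms4a1 replicate 2 stood far above the other irradiated mice. Cd72, an inhibitory coreceptor, fell by 2.90, and Fcmr, the IgM Fc receptor, fell by 3.64. The mean level of the list was 6.36 in 3.0 Gy replicate 2, 5.36 to 5.38 in the other irradiated mice and 7.88 to 8.55 in the control mice. Without replicate 2 the list median was -2.94 and 19 of 19 members still fell.

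Among 17 B cell transcription factors, 13 fell and 0 rose (median -1.61, or -0.91 when all probe sets of a gene were averaged). Their shares were 76.5% and 0% beside 29.2% and 20.0% of all genes. Pou2af1, a coactivator of octamer-binding factors, read 4.42, 6.99, 4.44 and 3.3 at 3.0 Gy, against 8.93, 8.32, 8.08, 8.41 and 8.33 in control (change -3.63, SE 0.47, adjusted p = 3.65e-06). Bach2, a repressor that keeps B cells from becoming plasma cells, read 3.56, 5.12, 3.41 and 3.77 at 3.0 Gy, against 7.68, 7.06, 6.62, 7.09 and 6.29 in control (change -2.98, SE 0.33, adjusted p = 6.34e-07). Spib, an Ets factor, fell by 3.28, Irf8 fell by 2.4 and Bcl11a fell by 1.73, and no irradiated mouse overlapped the control range in these genes. Pax5, the factor that defines B cell identity, read 4.62, 4.93, 5.15 and 4.65 at 3.0 Gy, against 5.12, 5.19, 4.83, 4.82 and 4.92 in control, with overlapping groups (change -0.14, adjusted p = 0.393). Of 13 genes of plasma cells and immunoglobulin secretion, 4 fell and 3 rose, shares of 30.8% and 23.1% beside 29.2% and 20.0% of all genes (median 0.23, or -0.10 with the filter at the 75th percentile). The light chain segment Iglv1 fell by 2.96 (adjusted p = 1.41e-07) and the chaperone Mzb1 fell by 1.80, while Edem1, which works in the disposal of misfolded proteins, rose by 1.59 (adjusted p = 7.1e-07).

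MHC class II molecules display peptides to T cells, and B cells carry most of them in blood. Of 15 tested genes, 13 fell and 0 rose (median -2.65, -2.95 without 3.0 Gy replicate 2, and -1.65 when all probe sets of a gene were averaged). Their shares were 86.7% and 0% beside 29.2% and 20.0% of all genes. H2-Aa, an alpha chain, read 7.80, 9.45, 7.68 and 7.0 at 3.0 Gy, against 11.88, 11.41, 11.80, 12.09 and 11.45 in control (change -3.74, SE 0.34, adjusted p = 9.56e-08). H2-Ab1, a beta chain, read 5.36, 7.12, 5.25 and 4.6 at 3.0 Gy, against 9.52, 9.04, 9.32, 9.65 and 8.99 in control (change -3.72, SE 0.35, adjusted p = 1.11e-07). The groups were far apart in both, with replicate 2 the nearest to control. The largest fall of the list was in H2-Ob, a chain of the molecule that restrains peptide loading and is found mainly in B cells, with 3.74, 5.40, 3.87 and 2.91 at 3.0 Gy, against 9.12, 8.10, 8.74, 9.0 and 8.24 in control (change -4.66, SE 0.36, adjusted p = 1.99e-08). Its partner H2-Oa fell by 2.72 (SE 0.23, adjusted p = 4.11e-08), H2-Eb1 fell by 3.29 and the invariant chain Cd74 fell by 3.05. The regulators of the locus moved less. Ciita, the master activator, fell by 0.70 on its brightest probe set and by 1.21 on another (adjusted p = 7.2e-06). Rfx5 fell by 0.95, while Rfxap and Rfxank, which bind DNA together with Rfx5, were not called.

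Class II promoters share a Y box bound by the factor NF-Y. Its letters CTGATTGG were searched on both strands of the 200 bases before the annotated start in RefSeq (GRCm38.p6). They were present in 3.53% of 32817 such windows, or in 4.1% of the 26994 genes with a window. Of the 12 class II genes with a window 4 held them, namely H2-Aa, H2-Eb1, H2-Eb2 and H2-Oa. The stretches of 3 genes that fell together are shown 5′ to 3′ on the gene's strand, with the Y box in capitals. They lie at chr17:34287824-34288023 (minus strand), chr17:34305667-34305866 (plus strand) and chr17:34092179-34092378 (plus strand), and the box begins 51, 62 and 46 bases before the start. A match is only a description of the letters.
H2-Aa: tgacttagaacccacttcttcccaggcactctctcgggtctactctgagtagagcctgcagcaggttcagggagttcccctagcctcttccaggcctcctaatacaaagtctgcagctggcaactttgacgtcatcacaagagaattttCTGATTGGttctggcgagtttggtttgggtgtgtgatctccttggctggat
H2-Eb1: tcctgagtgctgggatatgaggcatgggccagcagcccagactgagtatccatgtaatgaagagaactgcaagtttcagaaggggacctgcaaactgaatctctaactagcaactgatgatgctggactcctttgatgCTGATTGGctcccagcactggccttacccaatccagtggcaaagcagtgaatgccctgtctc
H2-Oa: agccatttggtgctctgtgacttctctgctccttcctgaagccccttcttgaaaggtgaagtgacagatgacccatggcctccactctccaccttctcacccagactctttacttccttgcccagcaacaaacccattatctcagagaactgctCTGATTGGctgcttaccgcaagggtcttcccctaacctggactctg

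T cell genes fell too, with less spread among the irradiated mice. Of 22 tested genes of the T cell receptor complex, its coreceptors and signalling, 15 fell and 1 rose (median -0.63, or -1.06 with the most variable probe set of each gene). These were shares of 68.2% and 4.55% beside 29.2% and 20.0% of all genes. Cd8b1, the beta chain of the CD8 coreceptor of cytotoxic T cells, read 4.75, 4.18, 4.03 and 4.42 at 3.0 Gy, against 8.00, 7.33, 7.95, 8.30 and 6.93 in control (change -3.36, SE 0.26, adjusted p = 1.99e-08). Cd3g read 5.37, 5.39, 5.08 and 5.14 at 3.0 Gy, against 7.68, 7.01, 7.72, 8.13 and 7.01 in control (change -2.27, SE 0.21, adjusted p = 9.3e-08). Cd3d read 7.32, 7.23, 6.74 and 6.91 at 3.0 Gy, against 9.55, 8.64, 9.48, 10.00 and 8.90 in control (change -2.26, SE 0.25, adjusted p = 6.02e-07). In these receptor genes the groups did not overlap, and replicate 2 was not set apart from the other irradiated mice. Cd247, the zeta chain, fell by 2.04 and the Ras activator Rasgrp1 fell by 2.11. The surface protein Thy1 fell by 2.09, and there replicate 2 (5.79) was again the highest irradiated mouse. The brightest probe set of Cd8a was not called (-0.01), but another of its probe sets changed by -2.52 (adjusted p = 2.26e-07), so its probe sets disagreed. Cd4, the coreceptor of helper T cells, read 5.79, 5.81, 5.81 and 5.94 at 3.0 Gy, against 6.03, 6.22, 5.99, 5.82 and 5.76 in control, a change of -0.13 (adjusted p = 0.325). The single rise was in the kinase Prkcq, which platelets also contain, with 9.15, 8.90, 9.50 and 9.57 at 3.0 Gy, against 8.33, 8.37, 8.23, 8.53 and 8.19 in control (change 0.95, adjusted p = 3e-05).

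Genes of naive T cell homing, survival and identity fell more uniformly. Of 22 tested, 20 fell and 0 rose (median -1.71), shares of 90.9% and 0% beside 29.2% and 20.0% of all genes. S1pr1, the receptor with which lymphocytes leave lymph nodes, read 5.13, 5.30, 4.6 and 4.66 at 3.0 Gy, against 7.38, 6.71, 7.22, 7.34 and 6.88 in control (change -2.19, SE 0.18, adjusted p = 2.54e-08). Ets1, a transcription factor of lymphocytes, read 6.14, 6.82, 5.63 and 5.91 at 3.0 Gy, against 9.92, 9.15, 9.06, 9.31 and 8.49 in control (change -3.06, SE 0.28, adjusted p = 7.93e-08). The lymph node homing receptor Ccr7 fell by 2.47, the interleukin-7 receptor Il7r fell by 2.10 and the chromatin organiser Satb1 fell by 2.55. The GTPases of the Gimap family, which support lymphocyte survival, fell in 5 of 6 tested members, with changes of -2.58 (Gimap8) to -1.59 (Gimap6). Klf2, S1pr1 and several others of the list are also expressed by B cells. The list mean was 5.67 to 6.11 at 3.0 Gy, highest in replicate 2, and 7.02 to 7.92 in control.

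Of 22 NK and cytotoxic cell genes 4 fell and 3 rose, shares of 18.2% and 13.6% beside 29.2% and 20.0% of all genes (median -0.00, and -0.05 to 0.14 over the alternatives). The receptor chain Klrd1 fell, with 5.78, 5.26, 5.93 and 5.46 at 3.0 Gy, against 7.34, 6.49, 7.0, 7.74 and 6.66 in control (change -1.44, SE 0.28, adjusted p = 0.000264), and the granule protein Nkg7 fell by 0.67. The activating receptor Ncr1, a marker of NK cells, read 4.59, 4.74, 4.90 and 4.57 at 3.0 Gy, against 4.50, 4.47, 4.62, 4.64 and 4.49 in control (change 0.16, adjusted p = 0.47). The granzyme Gzma read 8.30, 8.45, 8.44 and 8.31 at 3.0 Gy, against 8.70, 8.25, 8.39, 8.89 and 8.14 in control (change -0.10, adjusted p = 0.792). Both had overlapping groups. Cd7 rose by 0.96 and the granzyme inhibitor Serpinb9 by 0.86.

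**Figure D3:**
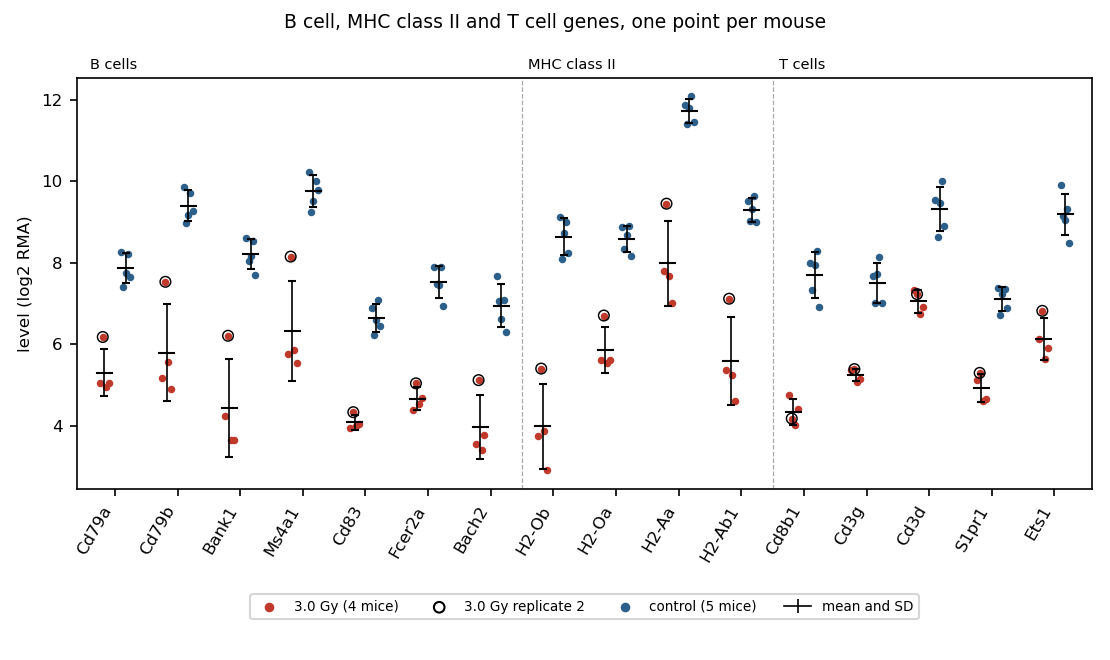
Log2 RMA level of 16 B cell, MHC class II and T cell genes in each mouse, 3.0 Gy in red at the left of each pair and control in blue at the right, with group means and SDs. In all 16 genes the groups lie apart. The circled 3.0 Gy replicate 2 lies highest of the irradiated mice in the B cell and class II genes. Among the T cell genes it lies highest in Cd3g, by little, and in S1pr1 and Ets1, but not in Cd8b1 or Cd3d.

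Mature neutrophil genes rose. Of 27 tested, 19 rose and 0 fell (median 0.95), shares of 70.4% and 0% beside 20.0% and 29.2% of all genes. In 12 of the 27 all irradiated mice lay above the control range, beside 14.2% of all genes. Clec4d, a lectin receptor of myeloid cells, read 10.31, 9.80, 10.12 and 10.29 at 3.0 Gy, against 8.58, 8.17, 8.73, 8.91 and 8.88 in control (change 1.48, SE 0.17, adjusted p = 1.1e-06). Hdc, which makes histamine, read 7.23, 7.10, 6.52 and 7.23 at 3.0 Gy, against 5.58, 5.63, 5.60, 5.37 and 5.34 in control (change 1.52, SE 0.18, adjusted p = 1.84e-06). The groups were separate for both. The interleukin-1 decoy receptor Il1r2 rose by 1.55, the chemokine receptor Cxcr2 by 1.13 and the receptor for granulocyte colony-stimulating factor, Csf3r, by 0.98. Csf3r read 9.88, 9.71, 8.76 and 9.88 at 3.0 Gy, against 8.95, 8.74, 8.59, 8.79 and 7.81 in control, so that replicate 3 lay within the control range. The calprotectin chain S100a9 rose by 0.79 (adjusted p = 0.0423), while its partner S100a8 changed by 0.54 (adjusted p = 0.112), with overlapping groups. The list mean was 8.07, 7.74, 7.16 and 7.85 at 3.0 Gy, against 6.97, 6.66, 6.82, 6.93 and 6.52 in control. Granule genes of immature granulocytes gave 3 rises and 2 falls of 15, shares of 20% and 13.3% beside 20.0% and 29.2% of all genes (median 0.22, or 0.56 with the filter at the 75th percentile). The number of rises was 0 without control replicate 4 or 3.0 Gy replicate 1, 1 without control replicate 2, control replicate 3 or 3.0 Gy replicate 4, and 6 without 3.0 Gy replicate 3. The lectin-like Chil3 fell by 1.65 (SE 0.35, adjusted p = 0.00072), and Lcn2 rose by 1.08 (adjusted p = 0.0397), a call that was lost when any of 6 mice was left out in turn.

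Of 31 monocyte and macrophage genes 11 fell and 3 rose, shares of 35.5% and 9.68% beside 29.2% and 20.0% of all genes (median -0.05, and -0.24 to 0.10 over the alternatives). Ccr2, the chemokine receptor of classical monocytes, fell, with 5.17, 5.69, 4.82 and 4.99 at 3.0 Gy, against 6.80, 6.61, 6.80, 6.67 and 6.58 in control (change -1.52, SE 0.19, adjusted p = 2.66e-06). Ctss, a cathepsin that B cells also use for antigen processing, fell by 1.54 and Ms4a4c fell by 1.32. The transglutaminase subunit F13a1, which platelets also contain, rose by 1.69 (SE 0.17, adjusted p = 1.99e-07), and the IgG receptor Fcgr4 by 1.04. Without control replicate 5 the number of rises was 6. Of 19 dendritic cell genes 5 fell and 3 rose, shares of 26.3% and 15.8% beside 29.2% and 20.0% of all genes. The largest falls, Spib, Ly6d (-3.01) and Irf8, are in genes that B cells share. Irf4, read at 4.62, 4.99, 4.4 and 4.56 at 3.0 Gy, against 6.42, 5.90, 5.77, 6.18 and 5.93 in control, changed by -1.40 (SE 0.17, adjusted p = 2.32e-06). Of 10 genes of eosinophils, basophils and mast cells 3 rose and 0 fell, shares of 30% and 0% beside 20.0% and 29.2% of all genes. The rises were Hdc and Gata2 (1.38), which neutrophils or megakaryocytes share, and the mast cell protease Cma1 (0.74, adjusted p = 0.0385), whose call was lost when any of 5 mice was left out in turn.

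Platelet genes rose as a block. Of 22 receptors of platelet adhesion and activation 21 rose and 1 fell (median 1.80), of 20 granule proteins 17 rose and 0 fell (median 1.45), and of 23 genes of the platelet and megakaryocyte cytoskeleton and signalling 22 rose and 0 fell (median 1.67). The rises were shares of 95.5%, 85% and 95.7%, whereas 20.0% of all genes rose and 29.2% fell. Gp5, a subunit of the von Willebrand factor receptor, read 9.39, 9.14, 9.77 and 9.97 at 3.0 Gy, against 7.01, 7.80, 7.11, 7.38 and 7.43 in control (change 2.22, SE 0.18, adjusted p = 2.73e-08). Gp1bb, another subunit of that receptor, read 11.85, 11.45, 12.42 and 12.28 at 3.0 Gy, against 9.39, 9.78, 9.89, 10.17 and 10.23 in control (change 2.11, SE 0.19, adjusted p = 8.4e-08). Slc6a4, the transporter with which platelets take up serotonin, read 8.84, 8.48, 9.38 and 9.41 at 3.0 Gy, against 6.38, 6.99, 6.57, 6.75 and 6.88 in control (change 2.31, SE 0.18, adjusted p = 2.16e-08). Every irradiated mouse lay above every control mouse in these receptors, and replicate 2 was the lowest irradiated mouse. The adhesion molecule Esam rose by 1.94, the ADP receptors P2ry12 and P2ry1 by 2.41 and 2.20, and the integrin chains Itga2b and Itgb3 by 1.78 and 1.91. The thromboxane receptor Tbxa2r went the other way, with 6.28, 6.11, 5.96 and 6.11 at 3.0 Gy, against 6.80, 6.60, 6.64, 6.76 and 6.53 in control (change -0.55, SE 0.10, adjusted p = 0.000105).

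Among the granule proteins, the adhesive protein thrombospondin, Thbs1, read 9.66, 9.28, 9.86 and 10.21 at 3.0 Gy, against 7.53, 7.91, 6.98, 7.38 and 7.88 in control (change 2.21, SE 0.19, adjusted p = 4.26e-08). Nrgn, a calmodulin-binding protein abundant in platelets, read 12.64, 12.34, 13.02 and 12.91 at 3.0 Gy, against 10.53, 10.90, 10.94, 10.94 and 11.05 in control (change 1.86, SE 0.13, adjusted p = 1.37e-08). The growth factor chain Pdgfa rose by 2.12, clusterin (Clu) by 1.88 and von Willebrand factor (Vwf) by 2.14. The chemokine Pf4, already among the brightest genes of the arrays, read 13.44, 12.95, 13.72 and 13.65 at 3.0 Gy, against 11.84, 12.17, 12.29, 12.47 and 12.64 in control (change 1.16, SE 0.15, adjusted p = 5.23e-06). Tubb1, the beta tubulin of the platelet marginal band, read 12.79, 12.27, 12.86 and 13.10 at 3.0 Gy, against 10.20, 10.94, 10.68, 10.97 and 10.88 in control (change 2.02, SE 0.17, adjusted p = 3.97e-08). No irradiated mouse reached into the control range for any of these. The myosin kinase Mylk rose by 1.89 and the focal adhesion protein zyxin, Zyx, by 1.67. The platelet lists rose in the same 4 mice in which the lymphocyte lists fell, and 3.0 Gy replicate 2, highest in B cell genes, had the lowest receptor list mean of the irradiated mice (8.30, against 6.98 to 7.47 in control). The part that a changed share of one cell type plays in the level of another's genes was not tested.

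Transcription factors that megakaryocytes and red cell precursors share parted. Of 20, 10 rose and 5 fell, shares of 50% and 25% beside 20.0% and 29.2% of all genes (median 0.35, or 0.64 with the most variable probe set of each gene). Gata1 read 8.61, 8.05, 8.98 and 8.75 at 3.0 Gy, against 6.40, 6.66, 6.71, 6.82 and 6.83 in control (change 1.91, SE 0.17, adjusted p = 6.47e-08). Tal1 read 9.11, 8.56, 9.25 and 9.26 at 3.0 Gy, against 6.54, 7.0, 6.95, 6.96 and 7.06 in control (change 2.14, SE 0.15, adjusted p = 9.36e-09). Nfe2, needed for platelet release, rose by 1.78 and Gfi1b by 1.62. In contrast Lmo2, which forms a complex with Tal1 and Gata1, read 6.57, 6.94, 6.48 and 6.63 at 3.0 Gy, against 9.16, 8.67, 8.60, 9.06 and 8.91 in control (change -2.23, SE 0.12, adjusted p = 2.22e-09), with no overlap. Ldb1, the bridge of the same complex, fell by 1.23, the cell cycle factor E2f2 fell by 1.42, Bcl11a fell by 1.73 and Lyl1 fell by 0.58. The erythroid factor Klf1 rose by 0.33.

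Red cell genes also split. Of 24 membrane, skeleton and surface genes 9 fell and 8 rose, shares of 37.5% and 33.3% beside 29.2% and 20.0% of all genes (median 0.10, or -0.29 with the most variable probe set of each gene). Slc4a1, the anion exchanger band 3, read 8.19, 8.66, 8.21 and 8.44 at 3.0 Gy, against 11.75, 11.04, 10.25, 10.53 and 10.86 in control (change -2.51, SE 0.23, adjusted p = 7.7e-08). Trim10, needed for terminal red cell maturation, read 7.75, 7.87, 7.63 and 8.14 at 3.0 Gy, against 10.61, 9.72, 9.41, 10.21 and 10.30 in control (change -2.20, SE 0.20, adjusted p = 7.2e-08). Both fell below the control range in every irradiated mouse, and the skeletal protein Epb42 fell by 2.29. The water channel Aqp1 rose, with 8.04, 7.42, 8.70 and 8.52 at 3.0 Gy, against 6.04, 6.37, 6.12, 5.97 and 6.38 in control (change 2.0, SE 0.19, adjusted p = 1.57e-07), as did glycophorin C (Gypc) by 1.72. Of 26 genes of heme, globin and iron 13 fell and 3 rose, shares of 50% and 11.5% beside 29.2% and 20.0% of all genes. The list median was -0.24, -0.43 with the most variable probe set of each gene and -0.10 with equal array medians. Glrx5, which builds iron-sulfur clusters, read 9.69, 9.90, 9.60 and 9.94 at 3.0 Gy, against 12.02, 11.66, 11.44, 11.70 and 11.88 in control (change -1.96, SE 0.12, adjusted p = 4.77e-09), and the scaffold Iscu fell by 1.22, Isca1 fell by 1.14, the heme enzyme Urod fell by 1.32 and the mitochondrial iron importer Slc25a37 fell by 2.23. The first enzyme of heme synthesis, Alas2, fell by 0.28 (adjusted p = 0.0155) at a level of 13.62 ± 0.15 at 3.0 Gy and 13.90 ± 0.09 in control. The 3 rises were the iron exporter Slc40a1 (1.03), the transporter Abcb10 (0.45) and the ferritin chain Fth1 (0.39).

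Of 26 red cell enzymes and genes of reticulocyte maturation 18 fell and 5 rose (median -0.87). These were shares of 69.2% and 19.2% beside 29.2% and 20.0% of all genes, so the share of rises was near that of all genes. Carbonic anhydrase 2, Car2, read 8.71, 8.85, 8.40 and 9.03 at 3.0 Gy, against 11.73, 10.72, 10.61, 11.46 and 11.26 in control (change -2.41, SE 0.20, adjusted p = 3.2e-08). Hagh, an enzyme of methylglyoxal detoxification, fell by 1.63 (SE 0.13, adjusted p = 2.68e-08), and the ubiquitin-linked Ubac1 fell by 1.89. Bpgm, which makes the phosphate that tunes oxygen release, fell by 1.5. Hexokinase 1, Hk1, rose, with 8.55, 8.59, 9.12 and 8.93 at 3.0 Gy, against 6.91, 7.29, 6.72, 6.93 and 6.63 in control (change 1.90, SE 0.13, adjusted p = 1.06e-08). Hexokinase 1 is not particular to red cells.

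p53 targets did not rise as a group. Of 28 tested genes of growth arrest, stress and regulation 8 rose and 6 fell, shares of 28.6% and 21.4% beside 20.0% and 29.2% of all genes, with a median of 0.15 (0.29 with equal array medians and 0.09 without 3.0 Gy replicate 1). Cdkn1a, the cyclin-dependent kinase inhibitor p21, read 5.97, 6.55, 5.86 and 5.75 at 3.0 Gy, against 5.03, 5.20, 4.93, 4.61 and 5.25 in control (change 1.03, SE 0.16, adjusted p = 2.26e-05). Phlda3, an inhibitor of Akt signalling, read 7.34, 7.30, 7.98 and 7.74 at 3.0 Gy, against 6.08, 6.11, 6.35, 6.20 and 6.40 in control (change 1.36, SE 0.14, adjusted p = 2.95e-07). Triap1 read 7.54, 6.53, 7.83 and 7.55 at 3.0 Gy, against 5.80, 5.35, 6.29, 6.16 and 6.37 in control (change 1.37, SE 0.23, adjusted p = 5.51e-05). All irradiated mice lay above the control range in these 3 genes. Ccng1, cyclin G1, rose by 0.76 (adjusted p = 0.000229). Sesn1, a sestrin that restrains growth signalling, fell instead, with 5.52, 5.65, 5.41 and 5.35 at 3.0 Gy, against 7.93, 7.10, 7.57, 7.89 and 7.31 in control (change -2.08, SE 0.16, adjusted p = 2.06e-08). Ddb2, a damage sensor of nucleotide excision repair, read 4.6, 4.17, 4.05 and 3.85 at 3.0 Gy, against 5.87, 5.22, 5.65, 5.81 and 5.38 in control (change -1.42, SE 0.18, adjusted p = 4.07e-06). The phosphatase Ppm1d fell by 0.67. Mdm2, the ubiquitin ligase of p53, read 5.33, 5.01, 5.29 and 5.48 at 3.0 Gy, against 5.56, 4.90, 5.32, 5.38 and 5.14 in control, a change of 0.02 (adjusted p = 0.931). With equal array medians 14 of the 28 rose, and 13 with a repeated quantile normalization. Under the same scalings 4494 and 3686 of the 12696 tested genes rose, in place of 2534. Lymphocyte markers fell in the same mice, and their part in the falls of single targets was not tested.

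Promoter letters were also searched for p53. In the 200 bases before the annotated start used here, a core of CATG, any 6 bases and CATG was searched on both strands. It was present in 0.387% of 32817 windows, or in 0.456% of the 26994 genes with a window. Of the 26 listed targets with a window 1 held it, Cdkn1a, where it begins 48 bases before the start. A search for these fixed letters in these 200 bases cannot show that the other targets lack a p53 element. The stretch at chr17:29090779-29090978 (GRCm38.p6, plus strand, RefSeq) is shown as that of the one listed target with the core, which is in capitals.
Cdkn1a: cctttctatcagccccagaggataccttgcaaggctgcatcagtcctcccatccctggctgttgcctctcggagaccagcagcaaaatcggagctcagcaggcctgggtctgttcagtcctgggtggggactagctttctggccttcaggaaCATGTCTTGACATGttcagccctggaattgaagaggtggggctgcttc

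Of 25 genes of cell death 9 fell and 6 rose, shares of 36.0% and 24.0% beside 29.2% and 20.0% of all genes (median 0.02, and -0.04 to 0.16 over the alternatives). Among the inhibitors of apoptosis, Birc3 read 6.33, 6.66, 6.01 and 6.06 at 3.0 Gy, against 8.45, 7.85, 8.05, 8.38 and 7.94 in control (change -1.87, SE 0.19, adjusted p = 2.02e-07). Its relative Birc2 read 10.52, 9.77, 10.96 and 10.94 at 3.0 Gy, against 8.53, 8.59, 8.94, 9.22 and 9.12 in control (change 1.67, SE 0.21, adjusted p = 3.02e-06). The pair thus moved in opposite directions, each without overlap. The initiator caspase Casp8 fell by 1.38 and cytochrome c (Cycs) fell by 1.07, while the BH3 protein Bid rose by 1.31. Bbc3 (PUMA), a p53 target that starts apoptosis, rose by 0.37 (adjusted p = 0.0246) with overlapping groups. The p53 target Pmaip1 (-0.03), and the death receptor Fas (0.15) were not called. For the apoptosis inhibitor Bcl2 the brightest probe set was not called (-0.09), while 3 of its other 4 were lower (-0.83 to -0.68).

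Of 37 tested genes of DNA replication 21 fell and 6 rose (median -0.41, or -0.25 without the filter on low values), beside 29.2% and 20.0% of all genes. Cdt1, which loads the replicative helicase, read 4.77, 5.54, 4.43 and 4.47 at 3.0 Gy, against 7.28, 6.78, 6.92, 7.25 and 6.67 in control (change -2.18, SE 0.21, adjusted p = 1.37e-07). Pcna, the sliding clamp, read 6.59, 6.51, 6.81 and 6.61 at 3.0 Gy, against 8.49, 7.74, 7.98, 8.62 and 7.99 in control (change -1.54, SE 0.17, adjusted p = 6.93e-07). The groups did not overlap in either gene. Rpa1, which coats single-stranded DNA, fell by 1.92, and Slbp, the histone mRNA binding protein, fell by 1.70. The dUTPase Dut rose by 1.48 and the origin subunit Orc1 by 1.08. In damage signalling and repair 14 of 34 fell and 2 rose, shares of 41.2% and 5.88% beside 29.2% and 20.0% of all genes (median -0.30, or -0.16 with equal array medians). Apex1, the base excision endonuclease, read 6.17, 6.18, 6.08 and 5.95 at 3.0 Gy, against 7.45, 7.19, 7.03, 7.26 and 7.03 in control (change -1.10, SE 0.12, adjusted p = 7.35e-07). The ubiquitin ligase Rnf8 fell by 0.80 and the checkpoint loader Rad17 fell by 1.51. The 2 rises were the checkpoint kinase Chek2 (0.83) and Brca1 (0.42).

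Mitosis and cell division genes showed 10 rises and 5 falls among 26, shares of 38.5% and 19.2% beside 20.0% and 29.2% of all genes. The list median was 0.21, or 0.07 when all probe sets of a gene were averaged, and the falls were the larger. Nusap1, a spindle protein, read 5.69, 6.42, 5.61 and 6.43 at 3.0 Gy, against 8.74, 8.21, 7.4, 8.05 and 8.15 in control (change -2.07, SE 0.23, adjusted p = 5.49e-07). Ube2c, the ubiquitin carrier of the anaphase-promoting complex, fell by 1.38, the centromere histone Cenpa fell by 1.06 and cyclin A2 (Ccna2) fell by 0.80. The rises were at most 0.74, as in Mki67 with 5.05, 5.36, 6.01 and 5.56 at 3.0 Gy, against 4.88, 5.14, 4.42, 4.17 and 5.16 in control, where replicate 1 lay within the control range (adjusted p = 0.0106). With a stricter filter on low values only 4 rises were left. Of 29 G1 cyclins, kinases and RB family genes 12 fell and 7 rose, shares of 41.4% and 24.1% beside 29.2% and 20.0% of all genes (median -0.04, -0.35 with the filter at the 75th percentile and 0.10 with equal array medians). The E2F partner Tfdp2 read 8.80, 9.18, 8.64 and 9.13 at 3.0 Gy, against 10.91, 10.62, 10.32, 10.63 and 10.69 in control (change -1.70, SE 0.14, adjusted p = 2.54e-08), and cyclin D3 (Ccnd3) read 9.24, 8.91, 9.67 and 9.54 at 3.0 Gy, against 7.75, 7.93, 7.83, 8.09 and 7.98 in control (change 1.43, SE 0.13, adjusted p = 7.2e-08). The phosphatase Cdc25b fell by 1.69 and the kinase Cdk7 fell by 1.24.

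Interferon-response genes rose in part. Of 44 tested 20 rose and 3 fell (median 0.31, or 0.51 with a repeated quantile normalization), beside 20.0% and 29.2% of all genes, and 21 were not called. Oasl1, which is related to the enzymes that sense viral RNA, read 7.49, 7.96, 6.70 and 7.52 at 3.0 Gy, against 5.38, 5.33, 5.04, 5.56 and 4.92 in control (change 2.18, SE 0.22, adjusted p = 2.61e-07). Igtp, a GTPase that guards against intracellular pathogens, read 10.16, 9.82, 10.57 and 10.63 at 3.0 Gy, against 8.50, 8.45, 8.39, 8.73 and 8.59 in control (change 1.76, SE 0.17, adjusted p = 1.47e-07). Ifit2 rose by 1.83, Ifit1 by 2.05 and Usp18, which dampens the interferon receptor, by 1.92. The irradiated mice lay above every control mouse in Oasl1 and Igtp. Rsad2 (viperin), an antiviral enzyme, fell, with 10.94, 11.64, 10.69 and 11.55 at 3.0 Gy, against 12.77, 12.73, 11.74, 12.11 and 12.18 in control (change -1.10, SE 0.22, adjusted p = 0.000354), as did Sp100 (-1.05) and Gbp3 (-0.64). The regulators Irf7 (-0.26) and Stat2 (0.04) were not called. The list mean was 7.05, 7.26, 6.64 and 7.09 at 3.0 Gy, against 6.67, 6.44, 6.28, 6.54 and 6.39 in control, so that replicate 3 lay within the control range. Over all alternatives the rises numbered 17 to 27.

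Interferon-response promoters carry a response element with a core of GAAA, any 2 bases and GAAA. Searched on both strands of the 200 bases before the start (RefSeq, GRCm38.p6), it was present in 2.26% of 32817 windows, or in 2.64% of the 26994 genes with a window. Of the 36 listed genes with a window 15 carried it. Both genes that rose and genes that fell carried it. Shown are Ifit3, Ifit1 and Igtp, which rose, and Rsad2, which fell, with the core in capitals (it begins TTTC where it lies on the opposite strand). They lie at chr19:34583329-34583528 (plus strand), chr19:34640689-34640888 (plus strand), chr11:58199356-58199555 (plus strand) and chr12:26456453-26456652 (minus strand). The core begins 156 and 122 bases before the start of Ifit3, 104 and 85 before Ifit1, 34 before Igtp and 120 before Rsad2.
Ifit3: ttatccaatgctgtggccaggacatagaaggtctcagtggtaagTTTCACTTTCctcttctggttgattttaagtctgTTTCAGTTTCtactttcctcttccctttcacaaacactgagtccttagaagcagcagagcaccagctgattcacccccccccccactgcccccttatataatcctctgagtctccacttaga
Ifit1: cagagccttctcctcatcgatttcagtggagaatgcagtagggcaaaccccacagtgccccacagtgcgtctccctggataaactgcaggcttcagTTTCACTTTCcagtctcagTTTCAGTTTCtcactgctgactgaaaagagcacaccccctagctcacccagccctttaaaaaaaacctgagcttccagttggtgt
Igtp: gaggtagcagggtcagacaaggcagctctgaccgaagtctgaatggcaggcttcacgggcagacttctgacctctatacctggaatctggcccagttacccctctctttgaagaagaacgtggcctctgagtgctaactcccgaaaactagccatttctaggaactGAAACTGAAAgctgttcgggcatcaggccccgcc
Rsad2: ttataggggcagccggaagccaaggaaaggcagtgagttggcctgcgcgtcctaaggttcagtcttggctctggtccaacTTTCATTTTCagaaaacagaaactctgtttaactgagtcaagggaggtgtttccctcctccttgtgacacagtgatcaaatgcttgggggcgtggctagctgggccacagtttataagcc

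**Figure D4:**
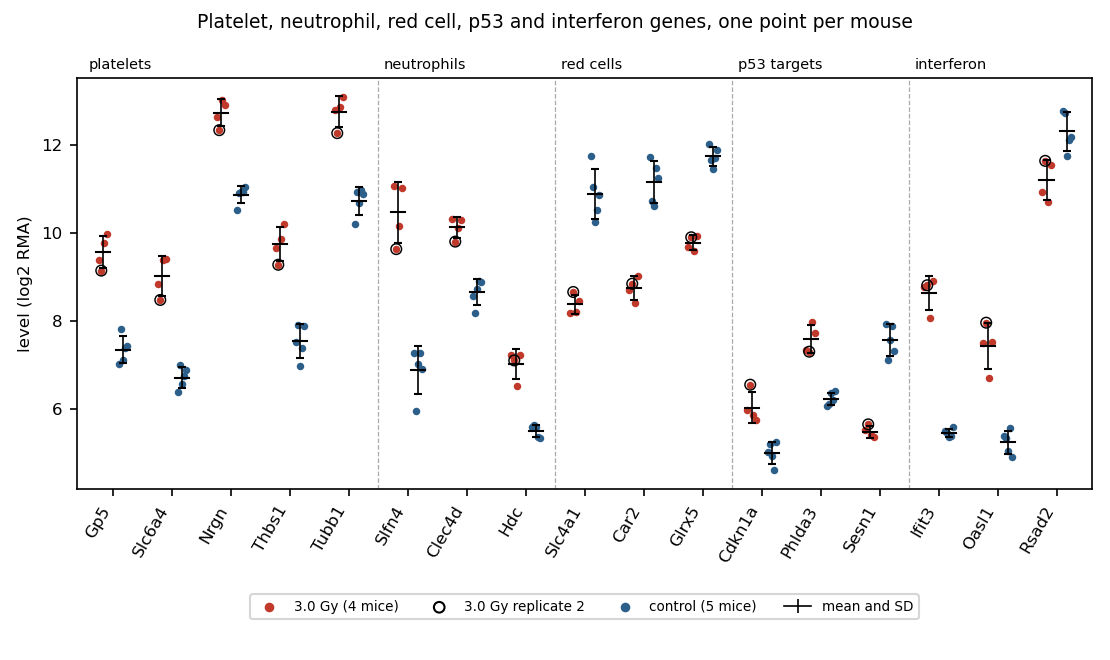
Log2 RMA level of 17 platelet, neutrophil, red cell, p53 target and interferon genes in each mouse, 3.0 Gy in red at the left of each pair and control in blue at the right, with group means and SDs. The groups do not overlap in any of them. Platelet and neutrophil genes lie higher at 3.0 Gy, red cell genes lower, and the p53 and interferon genes include both directions (Sesn1 and Rsad2 lower).

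NF-kB and inflammatory genes mostly fell, with 14 lower and 3 higher of 24 (median -0.58, or -0.29 without the filter on low values). These were shares of 58.3% and 12.5% beside 29.2% and 20.0% of all genes. The feedback inhibitor Nfkbia read 8.41, 8.32, 8.02 and 8.02 at 3.0 Gy, against 9.92, 9.02, 9.42, 9.99 and 9.41 in control (change -1.36, SE 0.19, adjusted p = 1.08e-05). Tnfaip3 (A20), another feedback inhibitor, read 5.21, 4.88, 4.82 and 5.20 at 3.0 Gy, against 6.27, 5.84, 6.12, 6.17 and 5.76 in control (change -1.0, SE 0.13, adjusted p = 3.02e-06), and the mitochondrial superoxide dismutase Sod2 fell by 1.05. Both inhibitors lay below the control range in every irradiated mouse. The rises were the cytokine Il1b (0.94), the inflammasome sensor Nlrp3 (0.59) and Tnf (0.36). Il1b read 9.91, 9.15, 8.62 and 9.50 at 3.0 Gy, against 8.49, 7.70, 8.65, 9.16 and 7.79 in control, with overlapping groups. Of 28 immediate early genes 11 fell and 5 rose, shares of 39.3% and 17.9% beside 29.2% and 20.0% of all genes (median -0.17, or -0.02 with a repeated quantile normalization), with 3 rises without control replicate 1 or 3.0 Gy replicate 1. Klf2, which lymphocytes use in homing, fell by 1.61 (SE 0.21, adjusted p = 4.93e-06), the stress gene Gadd45a fell by 0.82 and Btg2 fell by 0.85. Dusp1, a phosphatase of MAP kinases, rose by 1.15 (adjusted p = 0.00756), although 2 control mice (8.34 and 8.73) lay within the irradiated range of 8.30 to 9.56.

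Housekeeping genes of growing cells fell widely. Of 43 cytosolic ribosomal proteins 37 fell and 1 rose (median -1.24), shares of 86% and 2.33% beside 29.2% and 20.0% of all genes. Rpl6 read 9.11, 9.48, 8.83 and 8.70 at 3.0 Gy, against 11.24, 10.67, 11.13, 11.42 and 11.03 in control (change -2.07, SE 0.19, adjusted p = 7.74e-08). Rpl22 read 9.74, 9.86, 9.43 and 9.41 at 3.0 Gy, against 12.05, 11.24, 11.89, 12.27 and 11.87 in control (change -2.25, SE 0.20, adjusted p = 6.08e-08). Both lay far below the control range in every irradiated mouse. Rps18 fell by 2.52 and Rpl13a fell by 1.76, and the rise was in Rps16 (0.33). In 35 of the 43 all irradiated mice lay below the control range, beside 22.9% of all genes. Ribosomal protein probe sets can bind processed copies. Of 68 subunits of oxidative phosphorylation 47 fell and 4 rose (median -0.71), shares of 69.1% and 5.88%. Uqcrc2, of complex III, read 5.75, 6.11, 5.83 and 5.97 at 3.0 Gy, against 7.63, 7.13, 7.23, 7.71 and 7.22 in control (change -1.47, SE 0.14, adjusted p = 1.19e-07), and the ATP synthase beta chain Atp5b fell by 1.05. The rises were in Cox5a (1.31), Ndufs4 (0.94), Cox6b1 (0.75) and Ndufa4 (0.74). Of 36 proteasome genes 30 fell and 1, Psmd11, rose (0.58), with a median of -0.88 and shares of 83.3% and 2.78%. Psma1 read 6.25, 6.45, 5.92 and 5.79 at 3.0 Gy, against 8.00, 7.28, 7.50, 7.86 and 7.52 in control (change -1.53, SE 0.17, adjusted p = 7.18e-07). Lymphocyte genes fell in the same mice, and their part in these falls was not tested.

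Heat shock proteins gave 7 falls and 3 rises of 18, shares of 38.9% and 16.7% beside 29.2% and 20.0% of all genes (median -0.18, -0.80 with the most variable probe set of each gene and 0.02 without the filter on low values), or 5 rises without control replicate 5. The mitochondrial chaperonin Hspe1 fell by 1.57 (adjusted p = 6.55e-07) and Dnajb6 fell by 1.41, while Dnajb4 rose by 1.71 (adjusted p = 1.25e-06). Among 18 genes of fatty acid and sterol synthesis 8 fell and 2 rose, shares of 44.4% and 11.1% beside 29.2% and 20.0% of all genes (median -0.22, -0.58 with the most variable probe set of each gene and -0.08 with equal array medians). Scd1, the desaturase that makes monounsaturated fatty acids, read 5.35, 6.44, 4.83 and 5.02 at 3.0 Gy, against 8.76, 8.22, 8.05, 8.54 and 7.93 in control (change -2.89, SE 0.26, adjusted p = 7.7e-08), with no overlap. The elongases parted, as Elovl5 fell by 1.45 and Elovl6 rose by 1.29. Of 31 genes of oxidative-stress defence 11 fell and 9 rose, shares of 35.5% and 29.0% beside 29.2% and 20.0% of all genes (median 0.10, or -0.05 with the filter at the 75th percentile). The peroxidases Prdx2 and Gpx1, abundant in red cells, changed by -1.32 and -0.87. Srxn1, which repairs oxidised peroxiredoxins, rose, with 9.06, 8.04, 9.54 and 9.43 at 3.0 Gy, against 6.14, 6.89, 6.97, 7.14 and 7.31 in control (change 2.12, SE 0.26, adjusted p = 1.82e-06).

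Setting 3.0 Gy directly against the lower doses tests the difference between doses itself, since the control mice cancel. Against 1.0 Gy, 2016 genes (15.9%) were higher and 2888 (22.7%) lower, and against 0.5 Gy, 1633 (12.9%) were higher and 2659 (20.9%) lower. Changes of 0.5 and 1.0 Gy from control share the control mice with the 3.0 Gy change and are given only side by side. The 18S ribosomal RNA control of the arrays had a mean of 10.5 in control, 12.7 at 0.5 Gy, 13.3 at 1.0 Gy and 10.7 at 3.0 Gy, and its part in the differences between doses was not tested.

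Of 19 B cell surface genes 18 were lower at 3.0 than at 1.0 Gy and 19 were lower than at 0.5 Gy, and the list medians against control were -0.41 at 0.5 Gy, -0.43 at 1.0 Gy and -2.66 at 3.0 Gy. Of 22 naive T cell genes 19 were lower than at 1.0 Gy and 20 lower than at 0.5 Gy. Of all genes, 22.7% and 20.9% were lower in these comparisons. Dock10, an exchange factor of lymphocyte migration, changed from control by 0.17 at 0.5 Gy, 0.16 at 1.0 Gy and -2.84 at 3.0 Gy, and its 3.0 minus 1.0 Gy difference was -3.00 (SE 0.22, limma adjusted p = 3.02e-07). Scd1 changed by 0.15 at 0.5 Gy, 0.11 at 1.0 Gy and -2.89 at 3.0 Gy, and the kinase Prpf4b by 0.24 at 0.5 Gy, 0.35 at 1.0 Gy and -2.13 at 3.0 Gy. Sfpq, a nuclear splicing factor, changed direction, with called changes of 0.96 at 0.5 Gy, 1.02 at 1.0 Gy and -1.89 at 3.0 Gy (3.0 minus 1.0 Gy -2.91, SE 0.22, adjusted p = 3.02e-07). Against control, 1117 genes (8.80%) were higher and 1078 (8.49%) lower at 1.0 Gy, and 665 (5.24%) were higher at 0.5 Gy. In all, 13 genes were lower at 3.0 Gy and higher at 1.0 Gy against control, and 9 the reverse. Trim59 and Lmo2 fell stepwise, with changes of -0.77, -1.32 and -2.88 for Trim59 (0.5, then 1.0, then 3.0 Gy) and of -0.54, -1.02 and -2.23 for Lmo2.

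Platelet genes differed less between 3.0 and 1.0 Gy than B cell surface genes did. Of the 22 receptors 3 were higher at 3.0 than at 1.0 Gy and 1 was lower, beside 15.9% and 22.7% of all genes. Against 0.5 Gy, 8 of the 22 were higher and 1 was lower, beside 12.9% and 20.9% of all genes. Of the granule proteins 8 of 20, and of the cytoskeleton and signalling genes 9 of 23, were higher than at 0.5 Gy, and 0 were lower. Receptor list medians were 0.99 at 0.5 Gy, 1.31 at 1.0 Gy and 1.80 at 3.0 Gy. Gp5 changed by 1.71 at 0.5 Gy, 2.13 at 1.0 Gy and 2.22 at 3.0 Gy, and its difference between 3.0 and 1.0 Gy was 0.09 (SE 0.19, limma adjusted p = 0.723). Thbs1 changed by 2.37, 2.88 and 2.21 in the same order of dose and was lower at 3.0 than at 1.0 Gy (-0.67, SE 0.20, adjusted p = 0.0142). Mature neutrophil genes were different, with list medians of 0.09 at 0.5 Gy, 0.19 at 1.0 Gy and 0.95 at 3.0 Gy, and 16 of 27 were higher at 3.0 than at 1.0 Gy and 16 higher than at 0.5 Gy. Of the p53 targets Cdkn1a changed by 0.48, 0.77 and 1.03 from the lowest to the highest dose, with a 3.0 minus 1.0 Gy difference of 0.26 (SE 0.16, adjusted p = 0.204). Phlda3 changed by 0.36, 0.69 and 1.36 and was higher at 3.0 than at 1.0 Gy (0.67, SE 0.15, adjusted p = 0.0019). Zmat3 and Trp53inp1, both p53 targets, were lower at 3.0 than at 1.0 Gy by differences of -0.63 and -0.78, and 10 of the 28 targets were lower at 3.0 than at 1.0 Gy while 2 were higher. Among interferon-response genes 13 of 44 were lower at 3.0 than at 1.0 Gy and 0 higher, whereas against 0.5 Gy 17 were higher and 3 lower, and the list medians were 0.20 at 0.5 Gy, 0.75 at 1.0 Gy and 0.31 at 3.0 Gy. Chosen by the lowest p, the genes that were higher at 3.0 Gy than at a lower dose included Ttc16 (3.0 minus 1.0 Gy 1.31, SE 0.19, adjusted p = 6.91e-05), Lst1, a myeloid immune gene (1.03), 1110028F11Rik (0.77), the thymosin Tmsb15a (0.88) and the embryonic globin Hbb-y (1.21), and against 0.5 Gy Ninj1, an adhesion protein that ruptures dying cells (1.42), Bcas3 (1.08), 2310034O05Rik (1.39) and Ifit3 (1.78). In control, Tmsb15a read 3.73 in replicate 3 and 3.34 to 3.45 otherwise, beside control array medians of 3.47 to 3.54, the level of the filter. A gene so near the filter can enter the test through the arrays in which it is high. Hbb-y rose against control at 3.0 Gy (0.59) and fell at 1.0 Gy (-0.62), but its probe set can bind other globins, and on the probe sets of other types its change at 3.0 Gy was 0.27 (adjusted p = 0.177).

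**Figure D5:**
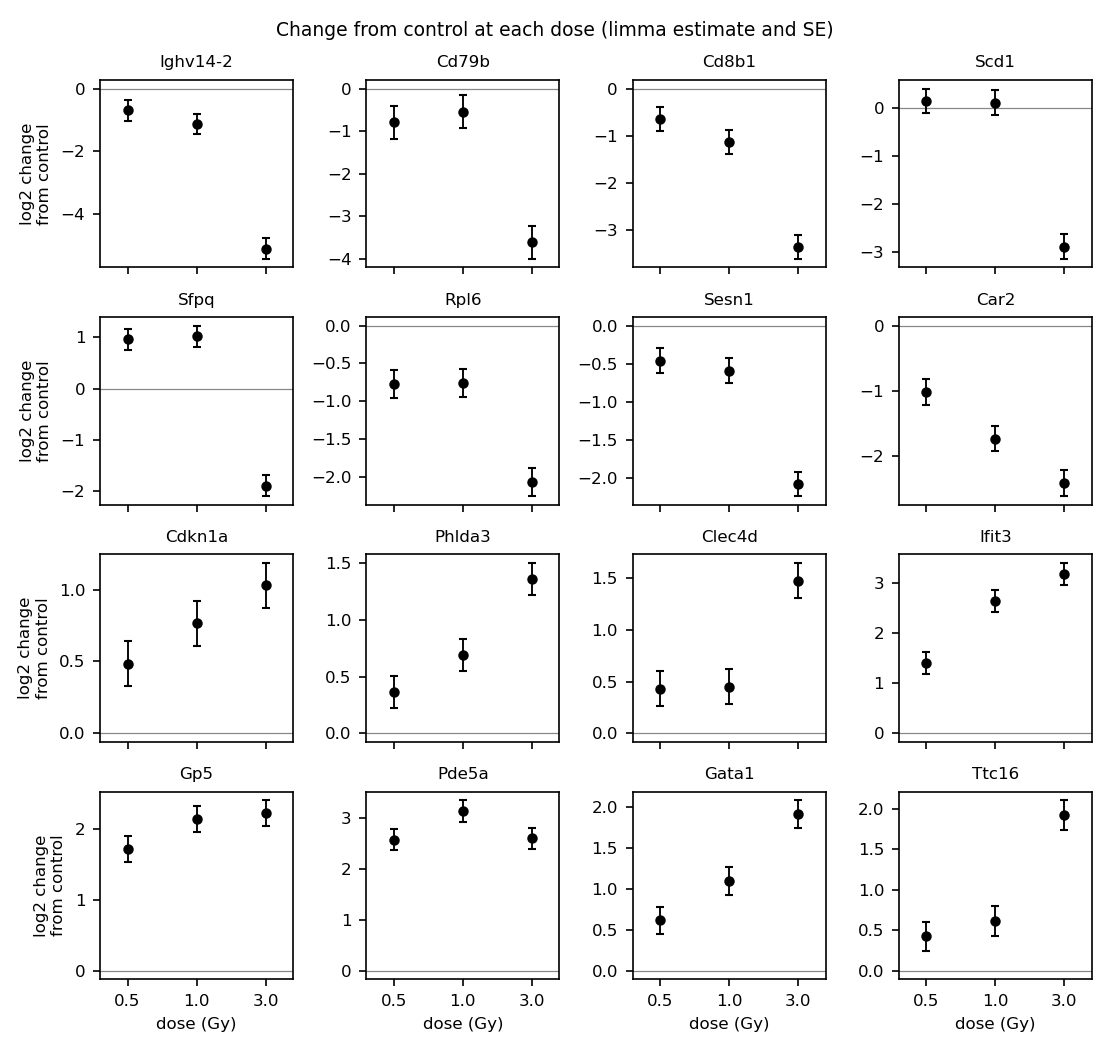
Log2 change from control (vertical axis, limma estimate with SE) at 0.5, 1.0 and 3.0 Gy for 16 genes, all sharing the same 5 control mice. Cd79b, Scd1 and Clec4d have their larger step between 1.0 and 3.0 Gy, Gp5 and Pde5a are already high at 0.5 Gy, and Sfpq lies above 0 at the lower doses and at -1.89 at 3.0 Gy.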

How the data were processed

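Affymetrix arrays of whole blood from 17 mice were used, 4 at 3.0 Gy, 4 at 1.0 Gy, 4 at 0.5 Gy and 5 controls. The authors deposited log2 expression for each of 45101 probe sets, made with RMA and R 3.3.2 per the submitters' processing notes, with settings that no source used here gives. RMA makes the distributions of probe intensities equal between arrays, so part of a shift shared by most genes would be removed, and changes of dim genes are understated. A platform annotation table gave 34945 probe sets 1 gene symbol, 932 several and 9160 none. For each of 18193 genes the brightest probe set (mean of the 17 arrays) stood for the gene. Genes had to exceed the 50th percentile of an array on 4 or more arrays, and 12696 did so. A model of 4 group means over the 17 arrays was fitted by lmFit and eBayes of limma 3.58.1 (R 4.3.3), two-sided, and Benjamini-Hochberg adjustment covered all tested genes. Array measures were compared by exact permutation. The number of arrays limits the precision, and these values hold no measure of background. No batch was named.

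The genes and the 35 lists were chosen with earlier results of these data known. Named genes were the 15 largest rises and 15 largest falls without overlap of the groups, 4 members per list by lowest p (6 for the p53 target, B cell receptor and T cell receptor lists), and 5 genes by lowest p for each direction between doses. Members named beyond these were picked with their values in view. Probe sets ending in _x_at or _s_at can bind several transcripts, as for H2-Aa, H2-Ab1, Slc4a1, Clec4d, Hdc, Sesn1, Rps18, Rpl22, Ets1 and Hbb-y. Of 169 called named genes, 87 had several measured probe sets, all of which were called alike in 56 and none of which was called in the opposite direction. Of 281 such called list genes 181 had all probe sets called alike, and Mkrn1, Orc2, Psmd4 and Sec11c had 1 or more called in the opposite direction (4 genes).

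Alternatives were other filters, other rules for the probe set, other scalings, array weights, the 9 arrays alone, a replicate block and the omission of each mouse in turn. Mice with the same replicate number did not deviate together (correlations of 0.00483, 0.0546, 0.135 and -0.00935), so the numbers were not used as pairs. Promoter stretches came from RefSeq (GRCm38.p6).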

Additional observations from a re-analysis of the deposited data

Results flagged for a closer look

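In 18 of 350 groups of values examined (11 at 3.0 Gy and 7 in control), 1 mouse lay far from the rest of its group by Dixon's test. Chance gives 1 in 20 for independent groups, but these groups came from the same 9 mice. The share therefore cannot tell chance from a mouse that differed, and most of the 11 at 3.0 Gy were replicate 2. Replicate 2 at 3.0 Gy was the highest irradiated mouse for Cd79a (6.18, others 4.96 to 5.04), Fcmr (6.97, others 5.24 to 5.46), H2-Oa (6.71, others 5.54 to 5.61), Igkv8-30 (6.32, others 4.13 to 4.47), Ms4a1 (8.15, others 5.55 to 5.86), Mzb1 (7.97, others 6.45 to 6.63) and Thy1 (5.79, others 4.75 to 4.84), and the lowest for Gadd45a (7.63, others 8.30 to 8.41). Replicate 3 at 3.0 Gy was low for Ifit3 (8.06) and Mxd1 (7.27), and replicate 4 at 3.0 Gy for Ms4a4c (6.77).

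Among the control mice, replicate 1 was low for Ifit2 (5.84), Nrgn (10.53) and Tal1 (6.54), and replicate 2 for Slfn4 (5.96). Replicate 3 was high for Tmsb15a (3.73), replicate 5 for Gata2 (6.21) and replicate 4 for the liver gene Alb (8.53, others 3.54 to 4.47).

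Probe sets with no gene symbol also changed. Of 3303 that passed the same filter, 1148 (34.8%) were called by limma, 549 higher and 599 lower at 3.0 Gy than in control.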

How the results depend on the processing

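The total of called genes, the falls at 3.0 Gy and the falls against 1.0 and 0.5 Gy stayed within 1.5 times of their counts under all alternatives run. With the filter at the 75th percentile, which tests fewer genes, 1634 genes were higher than control and 1090 higher than at 1.0 Gy. Equal array medians gave 4494 genes higher than control, 3862 higher than at 1.0 Gy and 3233 higher than at 0.5 Gy, and a repeated quantile normalization gave 3505 higher than at 1.0 Gy and 2857 higher than at 0.5 Gy. The mean of all probe sets of a gene gave 805 genes at least 2-fold lower than control. Leaving out each 3.0 Gy or control mouse in turn gave 5400 to 6324 called genes (2049 to 2583 higher, 3351 to 3741 lower), with 604 to 754 at least 2-fold higher and 1240 to 1545 at least 2-fold lower. It gave 3795 to 5047 between 3.0 and 1.0 Gy (1349 to 2093 higher, 2446 to 2954 lower) and 3398 to 4446 between 3.0 and 0.5 Gy (1149 to 1725 higher, 2249 to 2721 lower). No mouse given 0.5 or 1.0 Gy was left out, so how far the counts between doses depend on those mice was not tested. The cause of these shifts was not tested.

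A replicate block gave 6341 called genes (2562 higher, 3779 lower). Its numbers do not pair the mice, and of the named genes it ended the call of Lcn2 alone (change 1.01, adjusted p = 0.064). Of 169 called named genes 164 kept their call and direction under all 20 alternatives; the others were Cma1, Hbb-y, Jund, Lcn2 and Syne1. No value of a named gene reversed. Mcpt8, not called at first, was called with equal array medians (0.33, adjusted p = 0.0149). With other scalings 13 or 14 p53 targets were higher in place of 8, while 3686 or 4494 of all tested genes were higher in place of 2534.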
